A study of Mus musculus with 8 samples.

Results

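The genes described here encode the receptors through which neurons sense glutamate and GABA, the main excitatory and inhibitory transmitters of the cortex. They were chosen by name: 36 genes out of 21887 protein-coding genes with a locus, comprising 4 AMPA, 5 kainate, 7 NMDA and 1 delta receptor subunit, 7 metabotropic glutamate receptors, 10 GABA-A subunits and both GABA-B subunits. The measurement was ChIP-seq for methylated lysine 4 of histone H3 (H3K4me in the labels; the antibody's catalogue entry is for the monomethylated form) on native chromatin cut with micrococcal nuclease. There were 2 libraries from Emx1Ires-Cre; Prdm16flox/flox embryos (cKO) and 2 from Prdm16 flox/flox embryos without Cre (WT), all from whole cortex lysates at stage E15.5. Both groups carry the floxed Prdm16 alleles. Emx1-driven Cre acts in progenitors of the dorsal telencephalon and their progeny, so cells that enter the cortex from elsewhere, such as interneurons, keep Prdm16, which encodes a zinc-finger transcriptional regulator of cortical neural stem cells. A locus was the gene span plus 10 kb on either side (GRCm38), and its value was the number or share of its bases under the authors' peaks. The labels do not say that the libraries came from separate embryos, so p-values measure only the spread between these samples.

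AMPA, kainate and NMDA receptors are cation channels that open when glutamate binds, whereas metabotropic glutamate receptors act through G proteins. GABA-A receptors are chloride channels assembled from several kinds of subunit, and GABA-B receptors are G-protein-coupled heterodimers. Both transmitters act on progenitors and newborn neurons of the embryonic cortex before most synapses form. Monomethylated H3K4 marks enhancers and the flanks of promoters, so its spread over a locus describes regulatory chromatin and not the amount of RNA.

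Promoter windows of receptor genes are shown first, because coverage of the start ran from complete to absent among the members. They are the windows of the 2 most and the 2 least covered starts among the 26 receptor genes that have a start in the RefSeq promoter table (GRCm38.p6), and each holds 250 bases before to 50 bases after the start, 5′ to 3′ on the gene's strand, with CpG dinucleotides, the bases that mark CpG-island promoters, in capitals.
Grik3, plus strand, chr4:125490446-125490745: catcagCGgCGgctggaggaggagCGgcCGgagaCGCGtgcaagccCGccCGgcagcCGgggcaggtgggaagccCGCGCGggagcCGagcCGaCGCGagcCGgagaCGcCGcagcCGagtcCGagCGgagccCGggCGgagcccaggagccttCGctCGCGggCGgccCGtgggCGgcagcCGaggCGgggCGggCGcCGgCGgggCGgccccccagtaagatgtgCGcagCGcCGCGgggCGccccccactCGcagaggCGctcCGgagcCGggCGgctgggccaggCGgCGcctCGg
Gabrb1, plus strand, chr5:71657671-71657970: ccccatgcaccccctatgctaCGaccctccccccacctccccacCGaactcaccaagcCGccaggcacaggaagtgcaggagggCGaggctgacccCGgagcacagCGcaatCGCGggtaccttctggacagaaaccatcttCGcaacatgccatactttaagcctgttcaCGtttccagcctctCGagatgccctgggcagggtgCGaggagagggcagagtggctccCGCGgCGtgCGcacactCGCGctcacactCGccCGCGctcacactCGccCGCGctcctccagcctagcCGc
Gabra3, minus strand, chrX:72656870-72657169: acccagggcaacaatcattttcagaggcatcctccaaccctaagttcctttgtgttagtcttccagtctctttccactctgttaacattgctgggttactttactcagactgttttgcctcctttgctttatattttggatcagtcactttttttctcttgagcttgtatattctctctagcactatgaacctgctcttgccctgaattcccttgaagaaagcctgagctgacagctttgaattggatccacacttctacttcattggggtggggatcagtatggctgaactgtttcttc
Gabra6, minus strand, chr11:42321023-42321322: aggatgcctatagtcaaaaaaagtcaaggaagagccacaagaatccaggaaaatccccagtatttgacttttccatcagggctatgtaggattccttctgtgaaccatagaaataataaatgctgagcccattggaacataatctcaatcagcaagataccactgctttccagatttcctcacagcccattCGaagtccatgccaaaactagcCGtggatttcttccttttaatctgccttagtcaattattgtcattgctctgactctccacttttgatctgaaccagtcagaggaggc
The Grik3 window held 50 CpG dinucleotides, a number that 1.07% of 17492 promoters of the same length reach, and its GC content was 82.0%. In the Gabrb1 window there were 25 CpG dinucleotides, reached by 24.5% of promoters. The Gabra3 window held none and the Gabra6 window held 2.

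The region within 1 kb of the Grik3 start, a kainate receptor subunit gene, lay under peaks over its whole length in all 4 libraries. At the start of Gabrb1, a GABA-A beta subunit gene, the covered share was 90.5% and 96.3% in cKO replicates 1 and 2 and 78.0% and 89.0% in WT replicates 1 and 2. No library had a peak base within 1 kb of the start of Gabra3 or of Gabra6, the alpha subunit of cerebellar granule cells. These genes were picked by their mean coverage over the same 4 libraries, so agreement between libraries at both ends follows from the choice.

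Peak bases lay within 1 kb of the start in all 4 libraries for 18 of the 26 receptor genes (69.2%), against 45.6% of 17492 genes with a start. Another 6 had peak bases in some libraries, and 2, Gabra3 and Gabra6, in none. Where a gene had several starts, the one farthest upstream was counted. The starts of Gabra5, Gabbr1, Grin1 and Grik4 were covered in both cKO libraries and in WT replicate 1 but had no peak base in WT replicate 2, the library with the least covered length in the genome. That of Gria4, an AMPA receptor subunit, was covered in cKO replicate 2 only, over 69.8% of the window, and that of Gabrb2, a GABA-A beta subunit, in WT replicate 2 only, over 4.65%. The count of starts covered in all libraries was 14 of the 26 with stricter peaks, against 39.0% of all genes with a start. Without WT replicate 2 it was 22 of the 26, against 50.7%.

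**Figure D1:**
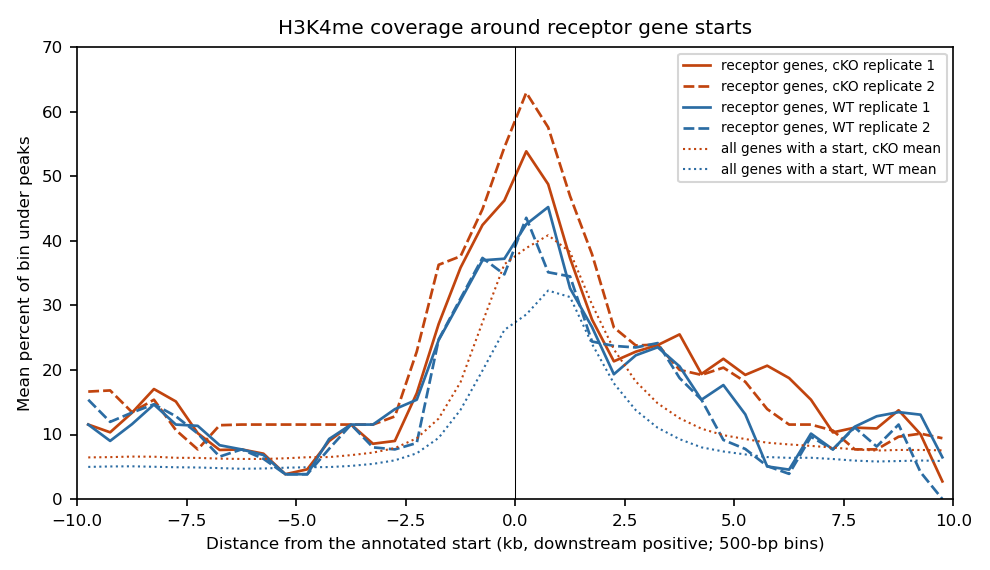
Mean share of 500-bp bins under H3K4me peaks (y axis, percent) by distance from the annotated start (x axis, kb) for the 26 receptor genes with a start, 1 line per library, and for all 17492 genes with a start as the mean of the 2 libraries of each genotype. Coverage of receptor genes was highest in the bin just downstream of the start in cKO replicates 1 and 2 (53.8% and 62.9%) and in WT replicate 2 (43.6%), and 500 bp further on in WT replicate 1 (45.2%).

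In the bin from 0 to 500 bp downstream of the start, receptor genes averaged 58.4% covered in cKO and 43.1% in WT, and all genes with a start 38.9% in cKO and 28.6% in WT. Both sets of genes therefore had more coverage at starts in the cKO lists. Most of the mark of the receptor genes nevertheless lay away from their starts. Within 2 kb of the start lay 11.99% ± 0.846 of their covered bases (SD, n = 4 libraries), against 18.95% ± 0.278 over all genes with a start. The median locus was 238 kb for the 36 receptor genes and 37.2 kb for all loci. A window of fixed size is thus a smaller part of a typical receptor locus, and the part of length in this difference was not tested. Of 105 intervals of at least 200 bp that were covered in all 4 libraries inside the spans of these 26 genes, 94 (89.5%) were more than 2 kb from every listed start. The matching share over all genes is not given here.

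Covered and partly covered receptor starts had similar CpG content. The 18 starts covered in all libraries had between 3 and 50 CpG dinucleotides with a median of 17.5, and the 6 covered in some libraries between 11 and 42 with the same median. Grin3b, an NMDA receptor subunit gene, had 3 CpG dinucleotides and 86.0% ± 7.56 of its start window covered (SD, n = 4 libraries), whereas Gabbr2, a GABA-B subunit gene, had 46 and 12.8% ± 13.1. For Gabbr2 the covered share was 32.4% and 6.40% in cKO replicates 1 and 2 and 6.05% and 6.20% in WT replicates 1 and 2, so 1 cKO library stood apart. Over all genes with a start the median CpG number was 21 where all libraries had a peak and 3 where none had.

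**Figure D2:**
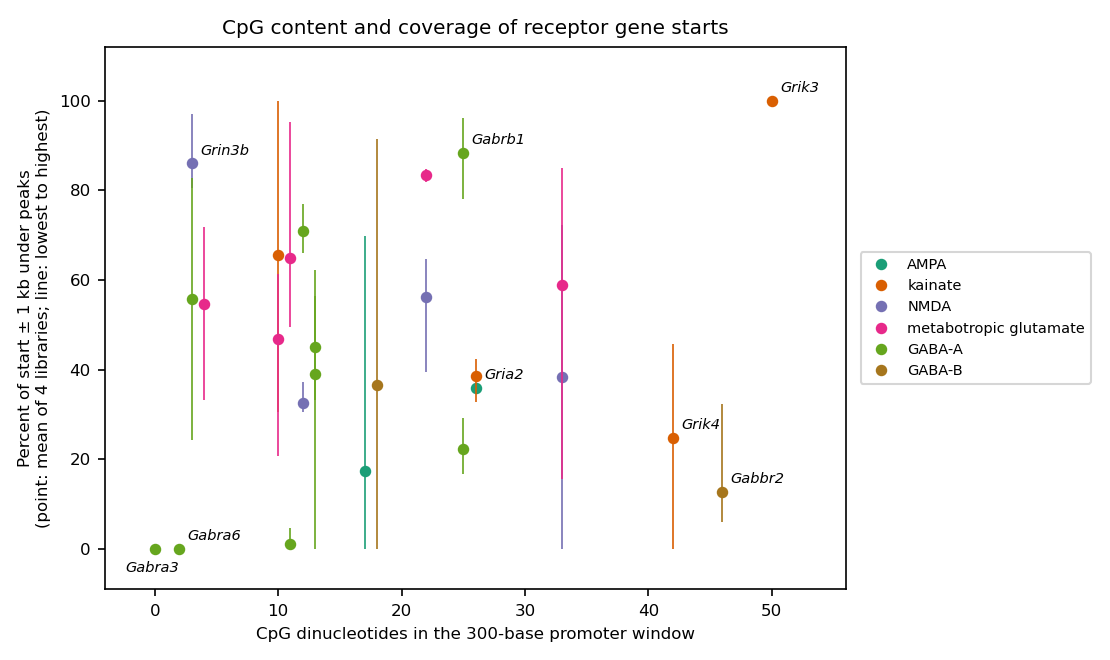
CpG dinucleotides in the 300-base promoter window (x axis) against the percent of the start ± 1 kb under peaks (y axis) for the 26 receptor genes with a start; points are means of 4 libraries, vertical lines run from the lowest to the highest library, and colours are receptor families. Grik3 lies at 50 CpG and full coverage, Gabra3 and Gabra6 at 0 and 2 CpG and no coverage, and Grik4 and Gabbr2 combine 42 and 46 CpG with low coverage.

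Gria2 encodes the AMPA receptor subunit that limits calcium entry through the channel. Its promoter window is shown because it alone among the 26 holds the core of the element bound by REST, a repressor of neuronal genes in non-neuronal cells and progenitors; the match is in capitals.
Gria2, minus strand, chr3:80802786-80803085: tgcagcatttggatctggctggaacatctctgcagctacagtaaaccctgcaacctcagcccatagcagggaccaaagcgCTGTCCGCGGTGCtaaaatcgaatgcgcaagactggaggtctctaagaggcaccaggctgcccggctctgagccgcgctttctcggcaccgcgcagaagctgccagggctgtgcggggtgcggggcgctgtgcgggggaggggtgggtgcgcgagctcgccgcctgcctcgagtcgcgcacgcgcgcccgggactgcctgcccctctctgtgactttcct
The match, GCACCGCGGACAG, lies on the strand opposite to the gene; both strands were searched, with any base allowed at the sixth and the seventh position. The motif was present in 0.103% of 17492 promoters (18 of them). Peaks covered 35.6% and 36.5% of the Gria2 start window in cKO replicates 1 and 2 and 35.3% and 36.5% in WT replicates 1 and 2, an SD of 0.637 that was the smallest among receptor genes with a partly covered start. GGGCGG, the core of the SP1 site, was in 15 of the 26 receptor promoters and in 46.3% of all promoters, and TGACGTCA, the cyclic AMP response element, in none of the 26 and in 2.33% of all. The Gria2 window held neither, and an absent match says only that these letters are not in the window.

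Over whole loci, the receptor genes ranged from no coverage to 31.3% of the locus. The median receptor locus had 4.51% and 4.24% of its bases under peaks in cKO replicates 1 and 2 and 3.76% and 3.72% in WT replicates 1 and 2. The median of all loci was 6.20% and 7.01% in cKO and 5.02% and 4.02% in WT. Receptor genes are long, with a median locus of 238 kb against 37.2 kb. For loci over 200 kb the median share was 2.25% ± 0.642 for 21 receptor genes and 5.49% ± 1.06 for all 1134 such loci (SD, n = 4 libraries). Up to 200 kb it was 10.9% ± 2.34 for 15 receptor genes and 5.56% ± 1.33 for all. Lengths still differed within both classes, with a median locus of 415 kb against 317 kb and of 48.3 kb against 35.7 kb. Of the 21 long receptor loci 5 lay above the median of all long loci (Grik3, Grik4, Gabbr2, Grin2b and Grid1), and of the 15 short ones 4 lay below that of all short loci (Gabra4, Gabrd, Gabrg1 and Gabra6).

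Of the 36 loci, 34 held peak bases in all 4 libraries, 8 had under 1% covered and 5 over 20%. Those 5 were Grik3, Grin2c, Grin3b, Gabbr1 and Grik5. Another protein-coding gene lies in 13 receptor loci, so some of this coverage may belong to neighbours, which was not tested. In the Grin3b locus 55.2% of covered bases lay under the spans of Wdr18 and Tmem259 and 14.2% inside Grin3b. The covered bases of Grm2 (20.1% inside the gene), Grin2c (48.5%) and Grik5 (52.9%) also lay in large part outside their own span. Grik3 and Gabbr1 had 82.5% and 84.2% of their covered bases inside the gene and no other coding gene in the locus. By the share of the gene span alone, Gabbr1 led with 39.1%, followed by Grin2c (30.4%) and Grik3 (28.1%).

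**Figure D3:**
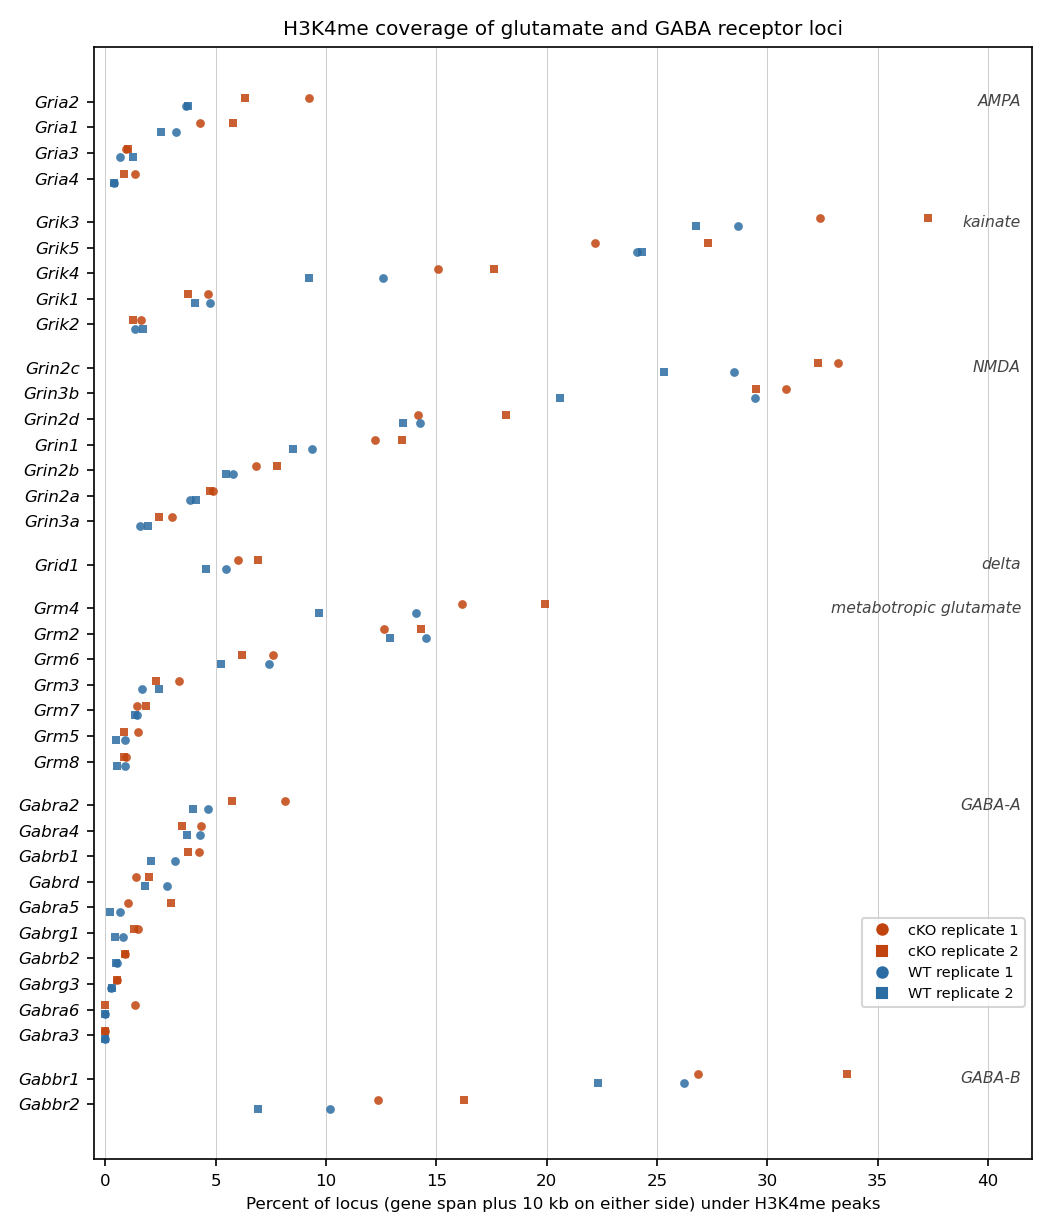
Percent of each receptor locus under H3K4me peaks (x axis) in each of the 4 libraries, with genes grouped by receptor family and ordered within it by mean share; circles are replicate 1 and squares replicate 2. Grik3 reached 32.4% and 37.3% in the cKO libraries and 28.7% and 26.8% in the WT libraries, and Gabra3 was at 0 in all.

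Among the AMPA receptor genes the mark was sparse. Gria2 had 13.2 and 9.02 kb under peaks in cKO replicates 1 and 2 and 5.25 and 5.36 kb in WT replicates 1 and 2 (143 kb locus, chromosome 3, gene at 80681450 to 80804227). Gria1 had 14.6 and 19.7 kb in cKO and 10.9 and 8.48 kb in WT (339 kb locus, chromosome 11, 57011571 to 57330244). In both genes the cKO libraries exceeded the WT libraries, as they did at 59.8% of the 14941 loci tested below. Gria4 had 5.31 and 3.38 kb in cKO and 1.56 and 1.61 kb in WT, in 398 kb on chromosome 9 (4417893 to 4796234), with no interval of at least 200 bp covered in all libraries. Gria3, on the X chromosome, had 2.81 and 3.10 kb in cKO and 1.98 and 3.69 kb in WT, and the genotypes overlapped.

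Kainate receptor genes ranged from 1.47% of the locus covered to 31.3%. Grik3 had 79.0 and 90.9 kb in cKO and 69.9 and 65.3 kb in WT (chromosome 4, 125490259 to 125714173). Its 20 intervals covered in all libraries included one of 11653 bp (125694905 to 125706557) near the far end of the gene, the longest such interval inside any receptor gene. Grik4 had 67.4 and 78.6 kb in cKO and 56.3 and 41.3 kb in WT, with 24 shared intervals over 447 kb. Grik5, whose product joins other kainate subunits in heteromers, had 19.04 and 23.4 kb in cKO and 20.7 and 20.9 kb in WT (chromosome 7, 25009849 to 25075694). Grik1 had 19.4 and 15.497 kb in cKO and 19.7 and 17.0 kb in WT (chromosome 16, 87895901 to 88290863). Grik2 had the smallest share, with 11.6 and 8.88 kb in cKO and 9.59 and 12.1 kb in WT of a 716 kb locus on chromosome 10. Neither Grik1, Grik2 nor Grik5 had more covered bases in both cKO libraries than in both WT libraries. Over all tested loci, 59.8% had more in both cKO libraries.

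Among the NMDA receptor genes the 4 with short loci had between 10.9% and 29.8% covered and the 3 with loci over 200 kb between 2.25% and 6.46%. Grin2c, a subunit known mainly from the cerebellum, had 12.7 and 12.3 kb in cKO and 10.9 and 9.65 kb in WT, which is 29.8% ± 3.64 of a 38.1 kb locus (SD, n = 4 libraries). Grin3a, a glycine-binding subunit, had 6.22 and 4.98 kb in cKO and 3.18 and 3.98 kb in WT, or 2.25% ± 0.642 of its locus. Both genes had more covered bases in the cKO libraries, as did 59.8% of all tested loci. The centred log2 difference described below was −0.11 for Grin2c and 0.20 for Grin3a. Grin1, the obligatory subunit, stood at 10.9% ± 2.34, and Grin2b, the regulatory subunit that prevails before birth, at 6.46% ± 1.05, above Grin2a, which prevails in the adult, at 4.39% ± 0.490. Grin2b and Grin2a had 13 and 9 intervals covered in all libraries, all of them inside the gene. The delta receptor gene Grid1, with a locus of 783 kb, had 47.1 and 54.1 kb in cKO and 42.8 and 35.6 kb in WT, spread over 23 shared intervals.

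Metabotropic glutamate receptor genes ranged from Grm4, a presynaptic receptor, to Grm8. Grm4 had 18.0 and 22.2 kb in cKO and 15.7 and 10.8 kb in WT, 15.0% ± 4.27 of its locus (SD, n = 4 libraries). Grm8 had 8.23 and 7.43 kb in cKO and 7.70 and 4.49 kb in WT, 0.791% ± 0.191 of 880 kb. The genotypes overlapped for Grm8 and not for Grm4, where both cKO libraries were higher, as at 59.8% of all tested loci. Grm2 had 3.99 and 4.52 kb in cKO and 4.59 and 4.08 kb in WT (chromosome 9, 106644534 to 106656109). Grm6, the receptor of retinal ON bipolar cells, had 6.61% ± 1.09 of its locus covered, with 46.1% of those bases under neighbouring zinc-finger genes. Shares for Grm3, Grm5 and Grm7 were 2.43%, 0.912% and 1.51%.

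The GABA-A subunit genes had the lowest coverage of the families, with a median share of 1.39% and 1.63% in cKO replicates 1 and 2 and 0.722% and 0.450% in WT replicates 1 and 2. Gabra2, an alpha subunit of embryonic and adult forebrain, had the largest share of its locus covered, 5.62% ± 1.82 (SD, n = 4 libraries), with 12.8 and 9.02 kb in cKO and 7.31 and 6.25 kb in WT. Gabra3 had no peak in any library over 244 kb of the X chromosome (gene at 72432676 to 72656919). A single peak of 0.474 kb in cKO replicate 1 was all that lay in the Gabra6 locus. Gabrd, the delta subunit of extrasynaptic receptors, had 0.467 and 0.651 kb in cKO and 0.930 and 0.591 kb in WT, all of it also under the overlapping annotation of Cfap74. Gabra5 had 2.103 and 6.08 kb in cKO and 1.34 and 0.433 kb in WT (chromosome 7, 57407669 to 57591016), with 28.4% of these bases under the span of a neighbouring coding gene. Within each genotype the Gabra5 libraries were far apart, but both cKO libraries were higher, as at 59.8% of all tested loci.

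Several GABA-A genes lie in clusters. Gabra4 and Gabrb1 overlap at their divergent starts on chromosome 5, so that 20.4 kb of their loci and the peaks over those starts are counted for both. Gabra4 had 4.72 and 3.77 kb in cKO and 4.64 and 4.004 kb in WT (71569734 to 71658308), and Gabrb1 21.6 and 19.1 kb in cKO and 16.1 and 10.6 kb in WT. Gabrg1, in the same cluster (70751047 to 70842617), had a single peak per library of 1.66 and 1.45 kb in cKO and 0.876 and 0.487 kb in WT. Gabrb2 had 2.06 and 2.03 kb in cKO and 1.20 and 1.08 kb in WT, and Gabrg3 3.66 and 3.70 kb in cKO and 1.68 and 2.16 kb in WT. In the last 3 genes and in Gabrb1, both cKO libraries lay above both WT libraries, as they did at 59.8% of all tested loci.

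GABA-B subunits stood apart from the GABA-A subunits. Gabbr1 had 12.98 and 16.3 kb in cKO and 12.7 and 10.8 kb in WT, 27.3% ± 4.69 of its locus (SD, n = 4 libraries), with a shared interval of 5659 bp (chromosome 17, 37047239 to 37052897) just inside the gene. Gabbr2 had 43.2 and 56.8 kb in cKO and 35.6 and 24.1 kb in WT, 11.4% ± 3.92 of its locus (chromosome 4, 46662318 to 46991714), with 18 shared intervals, all inside the gene. Both genes had more covered bases in the cKO libraries, as did 59.8% of all tested loci. The centred log2 difference described below was −0.083 for Gabbr1 and 0.36 for Gabbr2.

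More of the genome lay under peaks in the cKO lists, and every count of covered bases inherits this. Covered length was 148 and 166 Mb in cKO replicates 1 and 2 and 130 and 114 Mb in WT replicates 1 and 2, a ratio of 1.29. Over the union of the receptor loci it was 542 and 588 kb in cKO and 451 and 387 kb in WT, a ratio of 1.35. Receptor loci held 0.365% and 0.353% of all covered bases in cKO and 0.346% and 0.340% in WT. The read depth of the libraries is unknown, and its part in these differences was not tested. In a whole cortex lysate, fewer cells that carry the mark and less mark per cell cannot be told apart. The Jaccard index of covered bases in receptor loci was 0.630 between the cKO libraries and 0.633 between the WT libraries, and between genotypes it ran from 0.540 to 0.638, so cKO replicate 1 and WT replicate 1 shared as much as replicates did.

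Loci of cortical marker genes were the most covered of the cell type lists. The median locus was 53.9% covered for 8 radial glia genes and 54.9% for 7 projection neuron genes, against 21.2% for 7 interneuron genes, 6.18% for 6 endothelial, 5.36% for 6 microglial and 1.45% for 6 erythroid and liver genes, of which Alb and Hbb-bs had no peak in any library. Bases covered in the interneuron loci summed to 47.3 and 62.4 kb in cKO and 47.8 and 40.4 kb in WT and overlapped between genotypes. They summed to 141 and 148 kb in cKO and 135 and 133 kb in WT for radial glia, and to 202 and 222 kb in cKO and 204 and 183 kb in WT for projection neurons. The centred difference described below was negative at 8 of 8 radial glia and 7 of 7 projection neuron loci (medians −0.30 and −0.24). It was also negative at 4 of 4 tested microglial loci (median −0.30), at 4 of 7 interneuron loci and at 55.0% of all loci, and none was called. Several of these marker loci were covered over most of their length, such as Sox2 with 93.1% and 92.4% in cKO and 93.1% and 87.4% in WT. The part of cell composition in the receptor values was not tested. Prdm16, the targeted gene, had 171 and 182 kb under peaks in cKO and 154 and 144 kb in WT; which part of the gene is removed is not stated, so these values do not check the deletion.

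To compare genotypes, covered bases were put on the log2(bases + 500) scale, each library was centred on its median locus, and limma was fitted over the 14941 loci with a mean of at least 1000 covered bases. Of the 36 receptor loci 33 entered the test, and Gabra3, Gabra6 and Gabrd were too thinly covered. A log2 difference is cKO minus WT on this scale and understates changes of thinly covered loci. None of the 33 passed the limma test at an adjusted p of 0.05 over all loci in either direction, and 0% of all loci were called higher and 0% lower. At an unadjusted limma p under 0.05, 5 receptor loci were higher in cKO (15.2%, against 5.56% of all loci) and 2 were lower (6.06%, against 4.44%). Among all loci these numbers were 830 and 663. Leaving out WT replicate 1 gave 98 calls over all loci and leaving out WT replicate 2 gave 8, none of them a receptor gene.

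The 5 at that level were AMPA genes and GABA receptor genes. Gabra5 had the largest log2 difference at 1.28 ± 0.46 (SE, 2 libraries per genotype; limma adjusted p = 0.474). Gria4 stood at 0.80 ± 0.32 (adjusted p = 0.482), Gria2 at 0.59 ± 0.24 (adjusted p = 0.486), Gria1 at 0.40 ± 0.15 (adjusted p = 0.474) and Gabbr2 at 0.36 ± 0.13 (adjusted p = 0.474), all from limma. Thus 3 of the 4 AMPA genes were in this group and the fourth, Gria3, had −0.29 ± 0.34. The value of Gria1 turned to −1.38 when the lists were reduced to equal covered length, where Gria4 and Gabra5 were too thin to test, and with equal numbers of peaks none of the 5 stayed under an unadjusted p of 0.05. Leaving out 1 library moved several of these values by more than 1.5 times. Without cKO replicate 1, Gria2 stood at 0.24 and Gria4 at 0.42; without cKO replicate 2, Gria2 stood at 0.94 and Gabra5 at 0.69; without WT replicate 2, Gabbr2 stood at 0.19. With equal numbers of peaks Gria4 was at 0.091, Gabra5 at 0.46, Gria1 at 0.13 and Gabbr2 at 0.18. Gabrg1, the fourth largest positive value at 0.43 ± 0.41, had an adjusted p of 0.714.

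On the other side, 2 kainate receptor genes had an unadjusted limma p under 0.05. Grik1 stood at −0.46 ± 0.17 and Grik5 at −0.36 ± 0.12 (SE, 2 libraries per genotype; limma adjusted p = 0.474 for both). Their covered bases overlapped between genotypes, so the negative values are relative to the median locus, whose uncentred difference was 0.35. Without centring Grik1 was at −0.074 and Grik5 at 0.024. Grik2 had the most negative value, −0.47 ± 0.24 (adjusted p = 0.528), and Gabra4 (−0.41 ± 0.23, adjusted p = 0.557) and Grm2 (−0.41 ± 0.20, adjusted p = 0.518) followed Grik1. Without centring the values of Grik2, Gabra4 and Grm2 lay between −0.083 and −0.025. Without cKO replicate 2, Grik1 was at −0.22, Grik2 at −0.20 and Gabra4 at −0.19, and without cKO replicate 1 they were at −0.70, −0.74 and −0.64. Grik2 was at −0.73 without WT replicate 1 and at −0.20 without WT replicate 2.

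**Figure D4:**
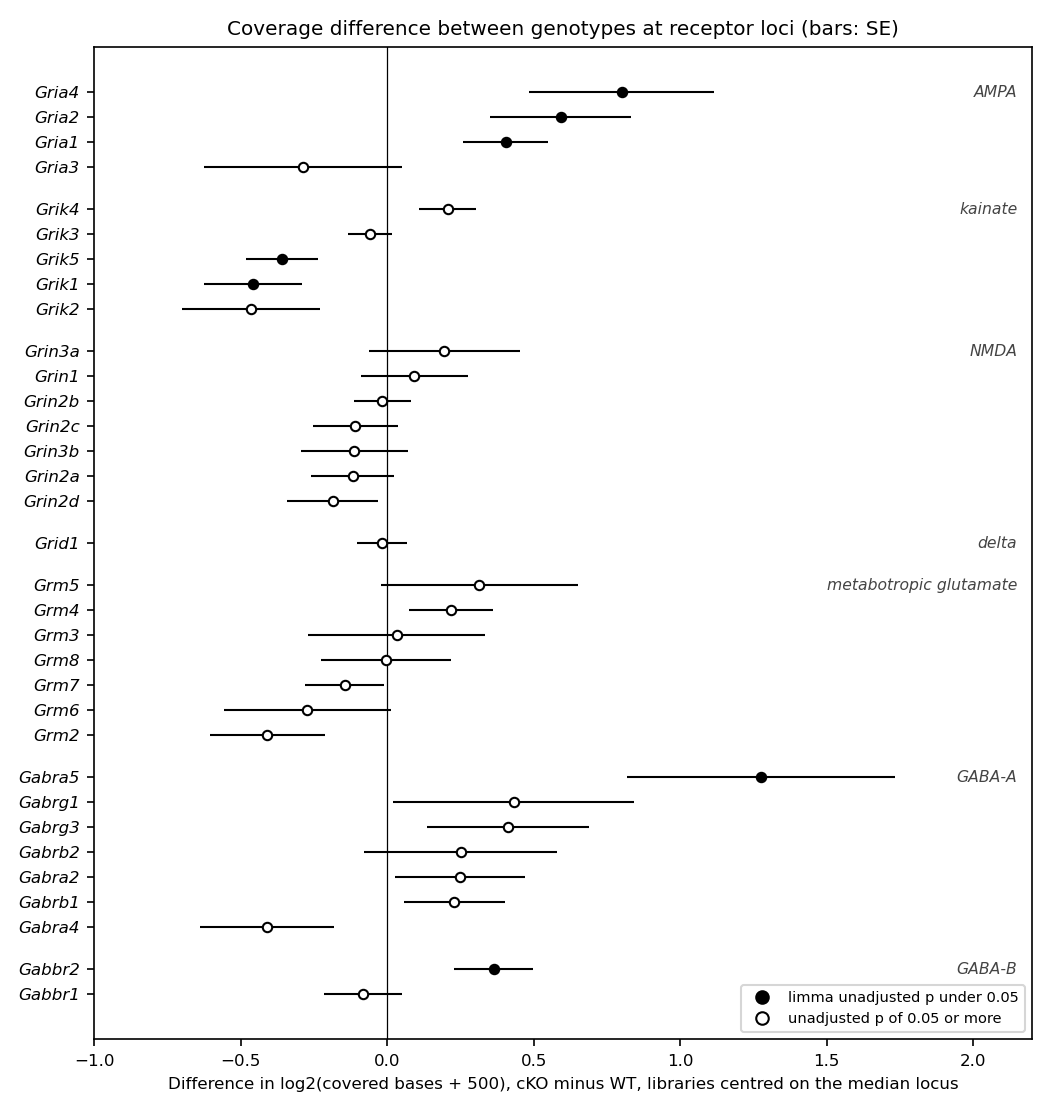
Log2 difference in covered bases, cKO minus WT (x axis; points, with bars of 1 SE from limma, 2 libraries per genotype), for the 33 receptor loci tested, grouped by family. Filled points have an unadjusted limma p under 0.05: Gria1, Gria2, Gria4, Gabra5 and Gabbr2 to the right of 0, and Grik1 and Grik5 to the left; none passed after adjustment over all loci.

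As a set the receptor loci lay near the median locus. Their median log2 difference was −0.0042, against −0.038 for all loci tested, and 16 of 33 were positive (against 45% of all loci). By family the medians were 0.50 for AMPA, −0.36 for kainate, −0.11 for NMDA, −0.0042 for metabotropic glutamate and 0.25 for GABA-A genes, where 6 of 7 tested were positive. Covered bases were higher in both cKO libraries than in both WT libraries at 22 of 33 receptor loci (66.7%, against 59.8% of all loci), and lower at none (against 1.22%). After centring, both cKO libraries lay above both WT libraries at 11 receptor loci (33.3%, against 17.3%) and below at 7 (21.2%, against 27.2%). These shares describe genes that were chosen with results of these data known and carry no test.

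Short regions covered in both libraries of 1 genotype and in neither of the other were found in both directions. Regions of at least 200 bp covered in cKO only numbered 32 in the receptor loci, out of 5591 in the genome, and regions covered in WT only numbered 2, out of 581. At least one cKO-only region lay in 20 of the 36 loci (55.6%, against 13.8% of all loci), and in 17 of the 21 receptor loci over 200 kb (81.0%, against 61.1% of all loci of that length). A WT-only region lay in 2 of the 36 (5.56%, against 1.57%), both of them over 200 kb (9.52%, against 13.8%). For cKO-only regions the receptor loci over 200 kb were thus closer to the background. They were also longer than all such loci (median 415 kb against 317 kb), and the part of length was not tested. With lists reduced to equal covered length the counts were 4 for cKO-only and 31 for WT-only. With equal numbers of peaks they were 17 and 8, so the direction differed between these settings. The cut to equal length removes the weakest peaks of every list except that of WT replicate 2, which stays whole.

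Of the cKO-only regions in receptor loci, 27 lay in gene spans and 5 in flanks, and gene spans also make up most bases of these loci. The median length was 439 bp, against 452 bp for cKO-only regions over the genome. Gria1 held 5 of the receptor regions, among them the longest (chromosome 11, 57174087 to 57175641, 1555 bp), all within the gene. Grik4 and Grid1 held 4 each and Gabbr2 held 3, and 16 further loci held 1 each. The peaks that made these regions were weak, with a median −log10 q, as deposited by the authors, of 2.63 and 2.91 in the 2 cKO libraries in turn, below the medians of 4.14 and 3.71 over every peak of these libraries. One region in Grik4 (chromosome 9, 42872926 to 42873783) had 4.26 and 6.597. Peaks under cKO-only regions elsewhere in the genome were not compared, so low values are not shown to be particular to receptor loci. Both WT-only regions were inside genes, in Grik2 (chromosome 10, 49131353 to 49131720, 368 bp) and in Gria3 (chromosome X, 41508109 to 41508331, 223 bp), and each of these genes also held 1 cKO-only region.

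Genes whose products work with the receptors were compared between genotypes in the same fit. Of 53 auxiliary subunit, scaffold, transporter and transmitter synthesis genes 50 were tested, and none passed the limma test over all loci (smallest adjusted p = 0.463). The median log2 difference was −0.012, with 23 positive (46.0%, against 45% of all loci) and 27 negative. At an unadjusted limma p under 0.05, 4 were higher (8.0%, against 5.56%) and 3 lower (6.0%, against 4.44%), shares near those of all loci. Neto1, an auxiliary subunit of kainate receptors, had the largest value at 1.12 ± 0.52 (SE), with 4.64 and 3.63 kb under peaks in cKO and 2.66 and 0.334 kb in WT. At the other end were Shisa7 (−0.46 ± 0.18) and Kctd16, an auxiliary subunit of GABA-B receptors (−0.44 ± 0.26). The median covered share of these 53 loci was 10.7% ± 2.21 (SD, n = 4 libraries), against 4.06% ± 0.382 for the receptor loci, and their median locus was 88.7 kb long, against 238 kb.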

How the data were processed

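The authors deposited 1 broad peak list per ChIP library, 4 in all; the 4 input libraries were not analysed here. The tools named in the submitters' processing notes are MACS2 2.1.1, Bowtie2 2.2.8, cutadapt and FastQC, with build mm10; no source used here gives their settings. The deposited columns hold peak coordinates, a score, a fold enrichment (a ratio over background) and −log10 p and −log10 q values, all the authors' own values per peak, used only to describe or filter peaks. The lists hold no read counts, so the depth is unknown and no counting interval is given. Peaks on the 19 autosomes, X and Y were intersected with GRCm38 gene spans plus 10 kb. The members and gene lists were chosen with earlier results of these data known.

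Covered bases were tested with limma 3.58.1 (R 4.3.3; moderated variances with a trend on mean coverage, Benjamini-Hochberg over 14941 loci, threshold 0.05); an exact permutation of 2 against 2 libraries cannot go below p = 0.333. On simulated data of the cKO against WT comparison over 14941 loci, the test recovered 1, 7, 19 and 35 of 50 loci changed by 0.5, 1, 2 and 4 on the log2 scale, with 1 false call. The direction of each change was random. Simulated base counts were kept from going negative, so the larger decreases could fall short of their named size. The 4 most positive and 4 most negative receptor loci and every one at an unadjusted p under 0.05 were named with their test values, with the first and last member of each family by share; the Gria2 promoter was chosen after the motif search. Starts and promoters are from RefSeq (GRCm38.p6), where 26 of 36 genes matched. Overlapping loci share peaks, and peaks carry no strand. Alternatives changed the centring, the peaks kept, the flanks, the pseudocount, the filter, the trend, the block and the libraries used. One auxiliary gene that the naming rule selects is not reported here.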

Additional observations from a re-analysis of the deposited data

How the results depend on the processing

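No receptor locus was called in any of 16 alternatives. Over all loci, leaving out 1 library gave 0 to 98 calls (98 without WT replicate 1, 8 without WT replicate 2, 0 without either cKO library); a lone library is then assumed to vary like the others. Without centring the median of all loci was 0.35 and that of receptor loci 0.38, Grik5 stood at 0.024, and 15 receptor loci were higher and none lower at an unadjusted limma p under 0.05 (3196 and 10 over all loci). Cyclic loess gave 1013 higher and 360 lower over all loci at that level, against 830 and 663 with median centring. At equal covered length Gria1 stood at −1.38, the median covered share was 2.68%, and 4 cKO-only and 31 WT-only regions were counted. Equal numbers of peaks gave 17 and 8, regions of at least 500 bp 14 and 0. Leaving out 1 library, an alternative added after seeing the data, gave 43 to 69 cKO-only and 5 to 11 WT-only regions; a region then needs fewer libraries. The cause of the other changes was not tested. The other named differences kept their sign but not their size wherever they could be fitted. Gabra5, Gria4 and Gabrg1 at equal covered length, Grm2 and Gabrg1 on the gene span, and Gabrg1 without cKO replicate 1 were too thin. The labels do not say that equal replicate numbers pair the samples, and same-numbered libraries did not deviate together (r = −0.0962 over 14941 loci). With the replicate block there were 0 calls and the receptor median stayed at −0.0042. With 2 libraries per genotype the simulation found 7 of the 50 simulated differences of 1 (log2), and the depth is unknown.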
